A study of Mus musculus with 550 samples.

Results

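The cadherins Cdh1, Cdh2 and Cdh3 and 7 other genes of epithelial and mesenchymal cell state (Epcam, Cldn6, Vim, Fn1, Snai1, Zeb1 and Zeb2) were followed in single cells of mouse embryoid bodies (EBs). The genes were taken by name, and all 10 had a row among the 55228 of the count table. EBs are aggregates in which embryonic stem cells differentiate once the self-renewal factor LIF is withdrawn. They were made from E14 cells, a line of the 129/Ola strain, that were wild type (WT) or lacked one of the de novo DNA methyltransferases, Dnmt3a -/- (3AKO) or Dnmt3b -/- (3BKO). All were grown without LIF and collected at day 3 and day 9. The study kept more than one clone of each mutant and pooled many EBs per collection, but the labels tell neither clones nor EBs apart.

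Cadherins are calcium-dependent adhesion proteins that join neighbouring cells at adherens junctions. E-cadherin (Cdh1) is the cadherin of embryonic stem cells, epiblast and epithelia, N-cadherin (Cdh2) that of mesoderm and neural tissue, and P-cadherin (Cdh3) is found in several epithelia. In an epithelial-mesenchymal transition (EMT), as at gastrulation, cells lose E-cadherin and tight junctions and gain vimentin and matrix proteins. The transcription factors Snai1, Zeb1 and Zeb2 are known to drive this switch, in part by repressing Cdh1 through E-boxes, short DNA words that they bind.

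Each sample was 1 cell, and no label named a culture, so each genotype and day was 1 sample without a replicate check, no difference was tested, and the 2 library batches of each group were set side by side instead. Of 550 cells, 486 had at least 50000 assigned reads, at least 2000 detected genes and at most 50% mitochondrial reads (333 in batch 1 and 153 in batch 2). The summed reads of the 12 libraries, each a group in 1 batch with 21 to 61 cells, ran from 8071118 to 22867811. Of the day 9 cells, 89 of 91 were kept in WT, 88 of 93 in 3AKO and 67 of 93 in 3BKO, and the median share of mitochondrial reads was 3.58% to 6.31% in the libraries of batch 1 and 9.09% to 13.5% in those of batch 2. At day 9, the level of Dnmt3a was 166 CPM (reads of the gene per 1000000 assigned reads) in WT against 25.2 in 3AKO, and that of Dnmt3b 167 CPM in WT against 16.4 in 3BKO. Exons of Dnmt3a overlap the antisense gene Dnmt3aos. At day 3, Dnmt3a stood at 25.8 CPM in batch 1 and 335 in batch 2 of the libraries labelled 3AKO, and at 587 and 12.8 in those labelled 3BKO. By Dnmt3a, batch 2 thus went against its day 3 mutant labels, and plate 210 held batch 1 of label 3BKO with batch 2 of label 3AKO while plate 211 held the other 2. At day 3 Dnmt3b stood at 261 and 85.1 CPM in batch 1 and batch 2 of label 3AKO and at 167 and 185 in those of label 3BKO. In WT it stood at 600 and 523. No day 3 library was near the 16.4 CPM of day 9 3BKO, so Dnmt3b did not identify 3BKO cells at day 3. Day 3 mutant values are therefore given by label, batch and plate. Each other group had a plate of its own, 209 for WT at day 3 and 234, 236 and 238 for WT, 3AKO and 3BKO at day 9. Its 2 batches were columns of that plate. Plate thus cannot be told apart from genotype at day 9, or from day in WT. All 8 epiblast markers had reads in every group, with a summed level of 2585 to 3585 CPM. Dnmt3b, the gene that 3BKO lacks, is itself among these markers.

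RefSeq promoter windows, from 250 bases before to 50 bases after a start (GRCm38.p6), were held for 5 of the 10 genes. The E-box CAGGTG, which reads CACCTG on the other strand, was searched on both strands. It occurred 2 times in the windows of Epcam and of Cldn6, 1 time in that of Snai1 and 0 times in those of Vim and Zeb2. Of all 32851 windows of this length, 20.2% held it and 2.88% held it 2 or more times. The 250 bases before the start are printed for Epcam (chr17:87635729-87635978, plus strand) and Snai1 (chr2:167537945-167538194, plus strand), the epithelial adhesion gene and the EMT factor whose upstream bases overlap no annotated exon, with the E-box in capitals.
Epcam: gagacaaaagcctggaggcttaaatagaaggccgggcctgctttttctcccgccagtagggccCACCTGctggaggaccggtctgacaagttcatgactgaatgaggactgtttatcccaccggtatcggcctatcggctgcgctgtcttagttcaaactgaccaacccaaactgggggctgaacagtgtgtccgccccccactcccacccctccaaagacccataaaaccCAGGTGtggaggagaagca
Snai1: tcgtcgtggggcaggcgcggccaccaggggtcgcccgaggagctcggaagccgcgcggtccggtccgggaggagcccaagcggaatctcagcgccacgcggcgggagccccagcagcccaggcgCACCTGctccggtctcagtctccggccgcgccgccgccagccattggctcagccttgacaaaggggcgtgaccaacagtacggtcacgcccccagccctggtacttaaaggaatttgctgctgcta
In Epcam the words began 187 and 19 bases before the start and in Snai1 126 bases before it. A match describes these letters and does not show that a factor binds.

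The genes lay at the following places in GRCm38, all of them protein-coding in GENCODE vM21. Cdh3 (chr8:106510891-106557297) and Cdh1 (chr8:106603351-106670246) were neighbours on the plus strand of chromosome 8. Epcam (chr17:87635979-87651129, plus strand) and Cldn6 (chr17:23679249-23682446, plus strand) were on chromosome 17. Vim (chr2:13573927-13582826, plus strand), Snai1 (chr2:167538195-167542814, plus strand) and Zeb2 (chr2:44983632-45117395, minus strand) were on chromosome 2. Fn1 lay at chr1:71585520-71653200 on the minus strand, Cdh2 at chr18:16588877-16809246 on the minus strand and Zeb1 at chr18:5591860-5775467 on the plus strand. Exons of Fn1, Zeb1 and Zeb2 shared 292, 198 and 662 bases with other genes, on the opposite strand except for Mir5129 in Zeb2, and whether counting used the strand is not stated, so these 3 counts are uncertain to that extent.

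Per length, Epcam was the most abundant member. In CPM per kilobase of exon (RPKM), Epcam, the epithelial cell adhesion molecule, led in all 6 groups, from 86.6 to 181. Cldn6, an embryonic claudin of tight junctions, at day 9 reached 77 RPKM in WT cells, 105 in those of 3AKO and 109.7 in those of 3BKO. Cdh1 lay between 12 and 26.9 RPKM and Cdh3 between 3.12 and 10.1. Vim ran from 2.03 RPKM in day 9 3BKO to 49 in day 9 WT cells and stood above Cdh1 in the 5 groups other than day 9 3BKO, and Fn1, between 10.6 and 16.3 RPKM, stood above Cdh3 in all 6. The EMT factors were low, with Snai1 between 0.295 and 6.72, Zeb1 between 0.701 and 2.31 and Zeb2 at no more than 0.419 RPKM. The values below are CPM, so they compare libraries for 1 gene and not genes with one another. In sums over cells, fewer expressing cells and less RNA per cell cannot be told apart, and shares of cells with a read are given beside them. Shares were taken after thinning each cell to 50000 reads. Intervals are 95% exact Poisson or binomial ones, and all cover counting error only, not the spread between cultures or clones. The reads carry no molecular identifiers, so copies of 1 molecule count as separate reads. Poisson intervals can therefore be too narrow even for counting error.

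**Figure D1:**
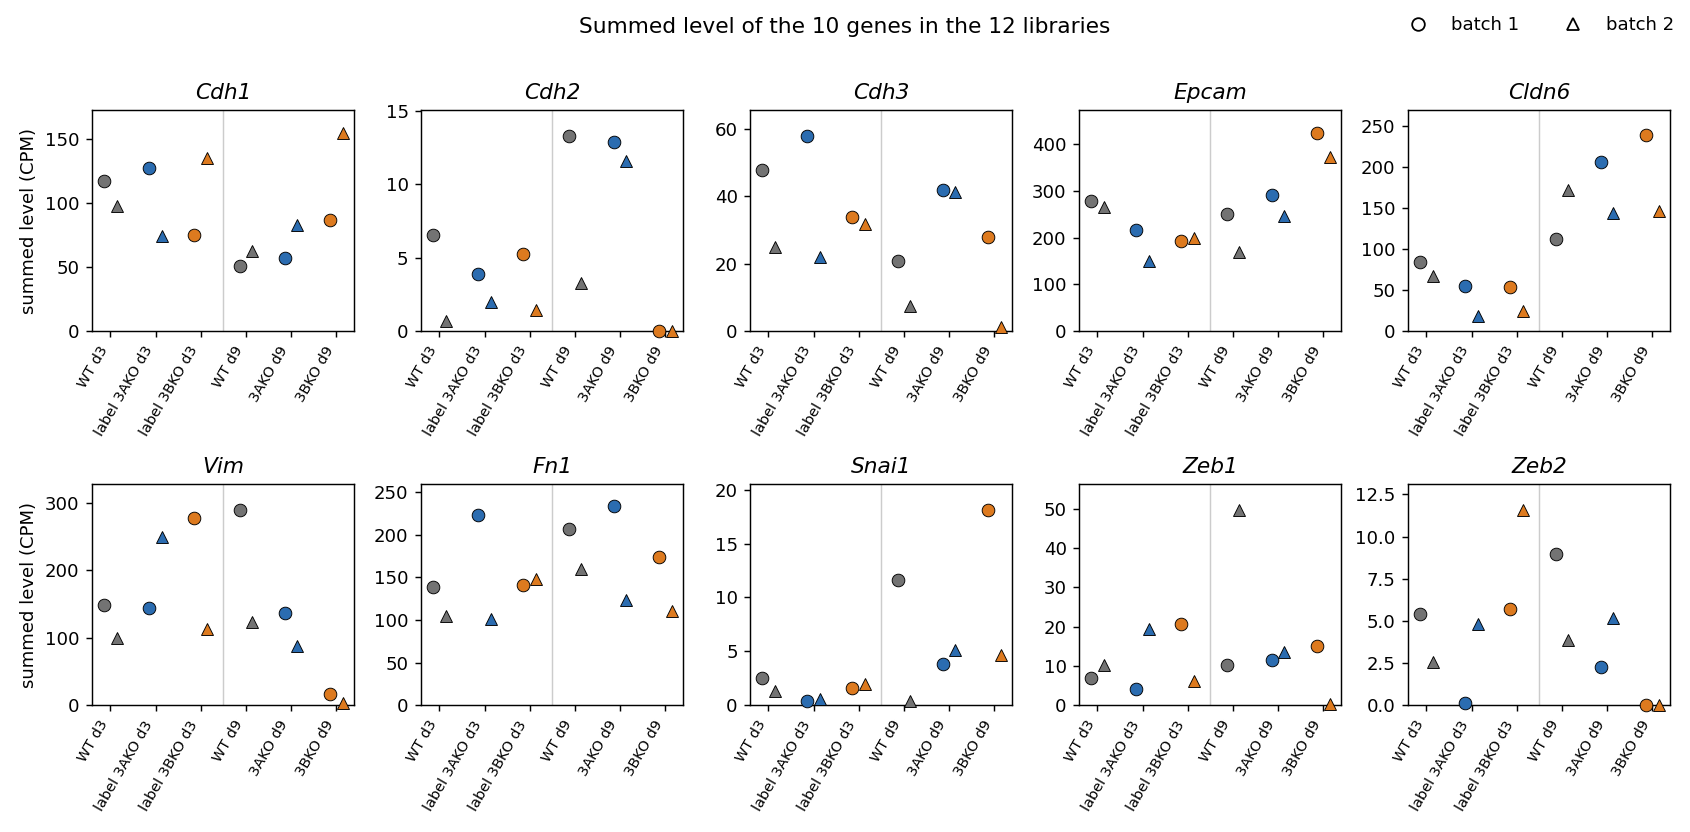
Summed level in CPM (vertical axes, linear, a scale for each gene) of the 10 genes in the 12 libraries, with groups on the horizontal axes, circles for batch 1 and triangles for batch 2. Vim is at 16.8 and 3.45 CPM in the 3BKO day 9 libraries, where Cdh2 and Zeb2 are at 0, and the day 3 mutant labels are in doubt.

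In WT EBs, both epithelial cadherins had lower sums at day 9 than at day 3 in each batch, and Cdh3 passed the fold rule while Cdh1 did not. The rule has a detection limit, reads in at least 20% of the unthinned cells of one or other group within both batches, and asks for log2 ratios of (CPM + 1) of 1 or more in size and of one sign in both batches. Cdh3 fell from 47.9 CPM in batch 1 and 24.9 in batch 2 at day 3 to 20.7 and 7.53 at day 9, with log2 ratios of -1.17 and -1.60. Both day 9 libraries lay below both of day 3. Of 79 WT cells at day 3, 57% had a Cdh3 read (45.3 to 68.1%; 68.4% without thinning), and of 89 at day 9, 15.7% (8.88 to 25.0%; 20.2% without thinning). Of the 7 members past the detection limit, Cdh3 was the 1 called lower, against 2.19% of 10162 genes over the whole table, and 0 were called higher, against 5.25%.

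Cdh1 in WT had 117 and 97.8 CPM at day 3 and 51.1 and 62.2 at day 9. Its log2 ratios were -1.18 in batch 1 and -0.65 in batch 2, so the second missed the limit. The share of cells with a Cdh1 read was 86.1% at day 3 (76.5 to 92.8%; 93.7% without thinning) and 47.2% at day 9 (36.5 to 58.1%; 55.1% without thinning), a difference of -38.9 percentage points (-51.5 to -24.4). With the cell holding most reads of each gene left out of each group, Cdh1 passed too and the count became 2, and in batch 2 at day 9 that 1 cell held 35.8% of the Cdh1 reads.

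The mesenchymal genes Vim and Fn1 had reads in fewer WT cells at day 9 but a higher summed level. The lower share was not particular to them, since it held for Cdh1, Cdh3 and Epcam too (differences of -41.2 to -13.6 percentage points). For Cldn6 the share was lower as well, but the interval of the difference included 0 (-30.1 to 0.94). The median number of detected genes per WT cell went from 7267 at day 3 to 5652 at day 9. Vim, the intermediate filament protein of mesenchymal cells, had 149 and 101 CPM in WT at day 3 and 289 and 124 at day 9, while its share of cells with a read was 77.2% at day 3 and 58.4% at day 9 (78.5% and 62.9% without thinning), a difference of -18.8 percentage points (-32.8 to -3.81). Its highest cell went from 905 to 3829 CPM, and its median cell from 74.1 to 65 CPM. One WT day 9 cell held 22% of the Vim reads, and the same cell held the most Zeb2 reads. It ranked 3 of 89 in summed extraembryonic endoderm markers, at 2996 CPM with reads of 4 of 14 against 131 CPM in the median cell, and 1 of 89 in trophoblast and surface epithelium markers, at 4788 CPM from 1 of 9 markers. The WT day 9 cells with the most Cdh2 and Snai1 reads ranked 2 and 4 in the endoderm markers, at 3030 and 1252 CPM. They had reads of 2 and 4 of the 14 markers, few for calling them endoderm, and the part of these cells in the sums was not tested. Fn1, the matrix glycoprotein fibronectin, had 139 and 104 CPM at day 3 and 207 and 160.1 at day 9, with log2 ratios of 0.57 and 0.61. Its share of cells with a read was 89.9% at day 3 and 77.5% at day 9. Neither gene passed the rule.

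The remaining members in WT showed no shared course. Epcam had 278 and 265 CPM at day 3 and 250.5 and 169 at day 9. Cldn6 had 84 and 66.7 CPM at day 3 and 112 and 172 at day 9. A read was found in 53.2% of cells at day 3 and 38.2% at day 9 (57% and 42.7% without thinning). This difference of -15 percentage points had an interval of -30.1 to 0.94. Zeb1 had 6.85 and 10.2 CPM at day 3 and 10.2 and 49.6 at day 9, with 24.5% of its day 9 reads in 1 cell. Snai1, Cdh2 and Zeb2 were seen in 4.49% to 13.9% of WT cells after thinning and did not reach the detection limit in both batches.

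At day 9, Vim was the 1 member called in 3BKO against both WT and 3AKO. It had 16.8 and 3.45 CPM in 3BKO, 137 and 88.1 in 3AKO, and 289 and 124 in WT. Every 3BKO library was below every 3AKO and WT library, whereas 3AKO and WT overlapped. The 3BKO libraries also lay clear of all others for Cdh1, Epcam, Cdh2 and Zeb2, whose values follow. Against WT, Vim in 3BKO was lower with a log2 ratio of -4.46 for the summed batches, of -4.03 for batch 1 and of -4.81 for batch 2. Against 3AKO these values were -3.47, -2.96 and -4.33. A Vim read was found in 5 of 67 3BKO cells, or 7.46% (2.47 to 16.6%; 8.96% without thinning), against 58.4% of WT cells (47.5 to 68.8%) and 51.1% of 3AKO cells (40.2 to 61.9%; 59.1% without thinning). In 3BKO 1 cell held 30.5% of the Vim reads, and leaving out the highest cell of each group gave a log2 ratio to WT of -4.57.

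**Figure D2:**
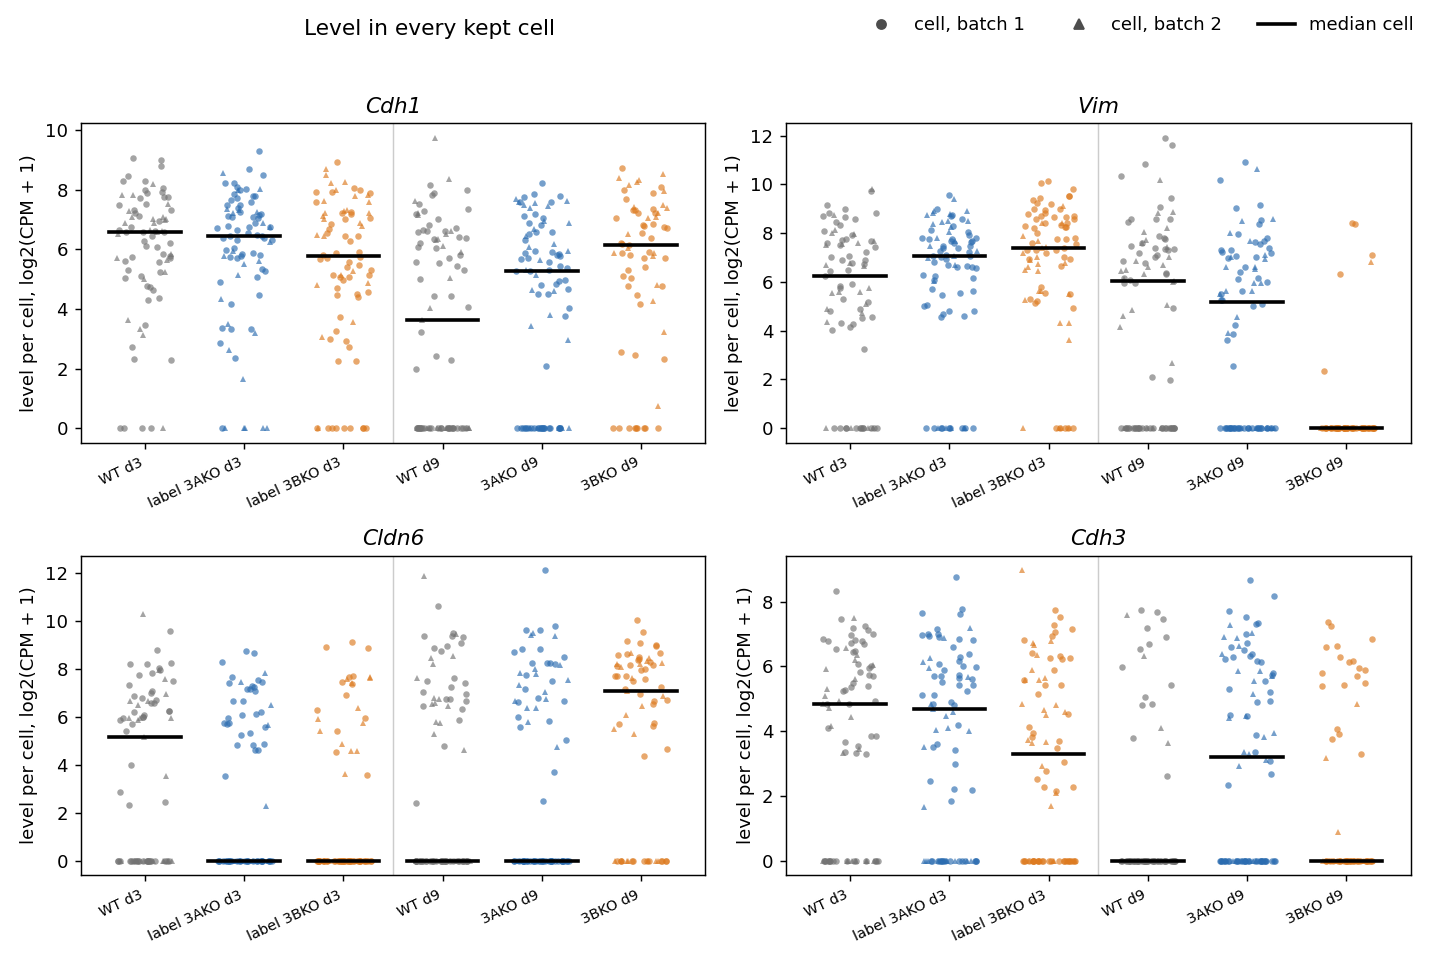
Level of Cdh1, Vim, Cldn6 and Cdh3 in each kept cell as log2(CPM + 1) (vertical axes), by group, with circles for batch 1, triangles for batch 2 and a bar at the median cell. In 3BKO at day 9 the median cell has 0 CPM of Vim and 134 CPM of Cldn6, and in WT at day 9 65 and 0.

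Of the 5 members past the detection limit between 3BKO and WT, Vim was the 1 called lower, against 4.98% of 9235 genes, and 0 were called higher, against 2.86%. Between 3BKO and 3AKO, 7 members passed the limit, 2 were lower (Vim and Cdh2), against 4.91% of 9152 genes, and 0 were higher, against 4.56%. Between 3AKO and WT, 7 passed it and 0 were called in either direction, against 1.07% higher and 1.59% lower of 9201 genes. The median log2 ratio of the members past the limit was 0.51 for 3BKO against WT, -0.42 for 3BKO against 3AKO and 0.30 for 3AKO against WT, and that of all genes tested was -0.08, -0.0014 and -0.10. Over all 10 members, those under the limit included, the medians were -0.34, -0.57 and 0.13, so that for 3BKO against WT the sign turned. The comparisons share their WT, 3AKO or 3BKO cells in pairs.

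Cdh2 and Zeb2 had 0 reads in the 67 3BKO cells at day 9. For a count of 0 a fixed limit of 3 counts was used in place of the interval, which is 0.0991 CPM over the group, or 4.48% of its cells. Cdh2 had 13.3 and 3.26 CPM in WT and 12.9 and 11.6 in 3AKO. With the batches summed, the limit of 3 counts in 3BKO lay 99.4-fold below WT and 125-fold below 3AKO. Such folds take reads as independent, although reads come clumped in few cells, so over cells only the limit of 4.48% holds. With the limit of 3 reads set per library these folds were 62.2-fold in batch 1 and 17.7-fold in batch 2 against WT, and 60.4-fold and 62.9-fold against 3AKO. Reads of Cdh2 came from few cells, 10.1% in WT (4.73 to 18.3%; 15.7% without thinning) and 20.5% in 3AKO (12.6 to 30.4%; 27.3% without thinning), and 1 WT cell held 35% of the WT reads. Cdh2 therefore passed the detection limit against 3AKO, where it was called, and not against WT.

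Zeb2 had 8.96 and 3.85 CPM in WT and 2.29 and 5.15 in 3AKO. With the batches summed, the limit of 3 counts in 3BKO lay 72.8-fold below WT and 35.1-fold below 3AKO, again with reads taken as independent. Per library these folds were 41.9-fold and 20.8-fold against WT, and 10.7-fold and 27.9-fold against 3AKO. Zeb2 reads came from 12.4% of WT cells (6.33 to 21%; 16.9% without thinning) and 7.95% of 3AKO cells (10.2% without thinning). Its paralog Zeb1 had reads in 3BKO, with 15.0 CPM in batch 1 and 0.431 in batch 2, beside 10.2 and 49.6 in WT. The batches of Zeb1 went in opposite directions, with log2 ratios to WT of 0.51 and -5.14. Zeb2 and Zeb1 stayed under the detection limit in this comparison. Of 10 neural ectoderm markers, 5 had reads in day 9 3BKO cells against 9 in those of WT and 3AKO, and Sox1, Neurog2, Nes, Zic1 and Fabp7 were at 0 in 3BKO. Their summed level per library ran from 147 to 229 CPM in WT, 154 to 241 in 3AKO and 106 to 249.4 in 3BKO, and their part in the values of Cdh2, Vim and Zeb2 was not tested.

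The epithelial genes were on the high side in 3BKO without passing the rule. Cdh1 had 86.8 and 155 CPM in 3BKO, 57 and 82.9 in 3AKO and 51.1 and 62.2 in WT, so the 3BKO libraries were above the others and 3AKO and WT overlapped. Its log2 ratios to WT were 0.75 and 1.30, and those to 3AKO 0.60 and 0.89. A Cdh1 read was found in 80.6% of 3BKO cells (69.1 to 89.2%; 86.6% without thinning), 33.4 percentage points above WT (17.6 to 47.1) and 18.1 above 3AKO (2.80 to 32.1). Of the 3BKO cells, 79.1% had more Cdh1 than the median WT cell. Trophoblast and surface epithelium markers, of which 6 of 9 had reads in 3BKO, 5 in 3AKO and 7 in WT with Cdx2 at 0 in each, summed to 179 and 95.6 CPM in the 3BKO batches, 68.4 and 33.1 in 3AKO and 166 and 29.3 in WT. The median cell had 87.4 CPM of them in 3BKO, 4.91 in 3AKO and 0 in WT, and their part in the values of the epithelial genes was not tested.

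Epcam followed the same order at the level of sums. It had 425 and 373 CPM in 3BKO, 291 and 248 in 3AKO and 250.5 and 169 in WT, with log2 ratios of 3BKO to WT of 0.76 and 1.13. The shares of cells with an Epcam read were 86.6%, 79.5% and 77.5% in 3BKO, 3AKO and WT, and their intervals overlapped. The highest 3BKO cell was at 4320.4 CPM, and a different cell, at 1066 CPM, held the most Epcam reads of its group, 12.9%.

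Cldn6 differed in how many cells carried it more than in its sum. It had 238 and 146 CPM in 3BKO, 206 and 144 in 3AKO and 112 and 172 in WT, and the 3 groups overlapped. A read was found in 71.6% of 3BKO cells (59.3 to 82%; 71.6% without thinning), 43.2% of 3AKO cells (32.7 to 54.2%) and 38.2% of WT cells (28.1 to 49.1%). One WT cell held 24.8% of the Cldn6 reads at 3787 CPM and 1 3AKO cell held 27% at 4392 CPM, while in 3BKO the highest cell held 6.95%. Each of those 2 cells had the highest summed level of extraembryonic endoderm markers in its group, 32579 CPM in the WT cell and 49055 in the 3AKO cell, with reads of 11 and 12 of the 14 markers. The median cells had 131 and 121 CPM of these markers. Without the highest cell of each group the log2 ratio of 3BKO to WT went from 0.51 to 0.82 and that to 3AKO from 0.07 to 0.42, and with these cells kept the part of endoderm cells in the sums was not tested.

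**Figure D3:**
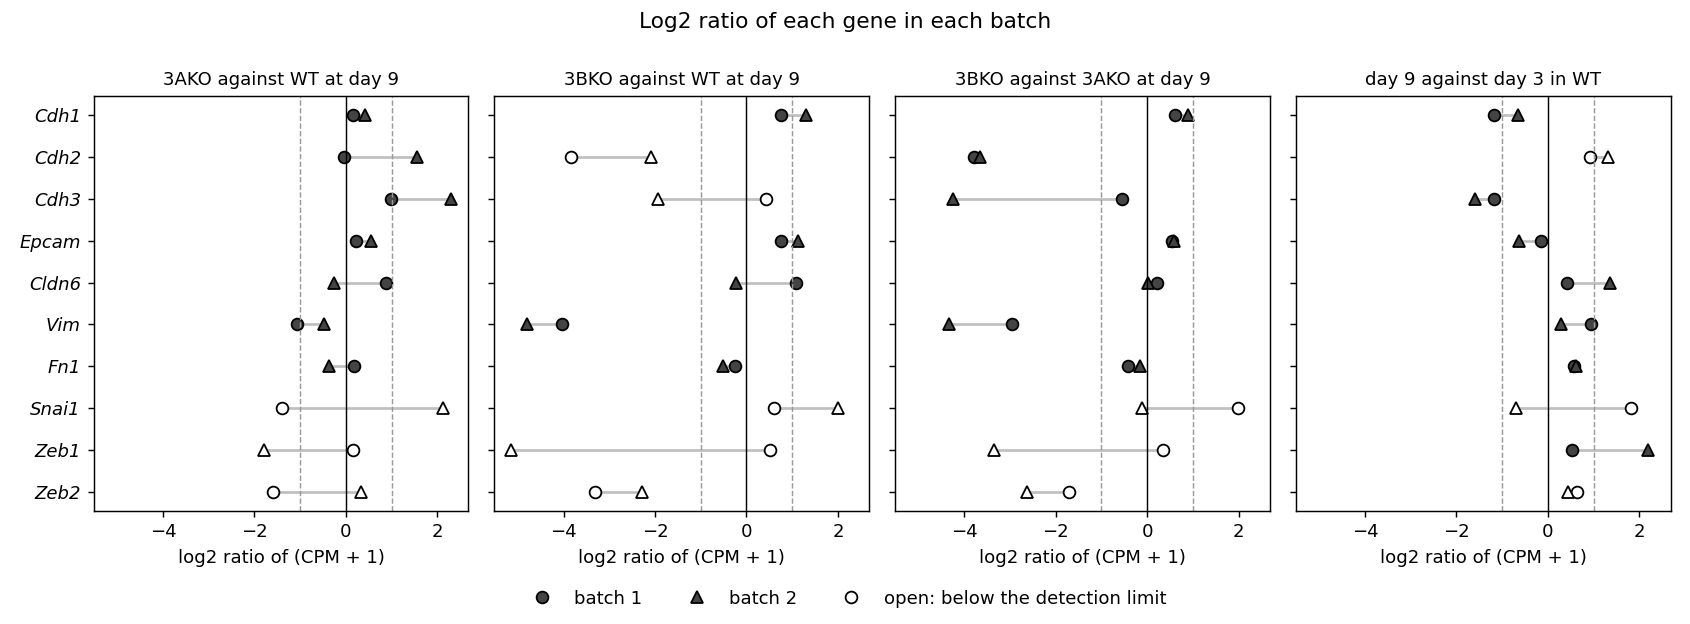
Log2 ratio of (CPM + 1) of each gene (horizontal axes) in the 4 comparisons, with circles for batch 1, triangles for batch 2, dashed lines at -1 and 1, and open symbols for genes under the detection limit. Vim lies left of -1 in both batches of both 3BKO comparisons at day 9, and Cdh3 in both batches of WT over time.

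Cdh3 had its widest gap between 3AKO and the other day 9 groups. It had 41.9 and 41.3 CPM in 3AKO, 20.7 and 7.53 in WT and 28.1 and 1.23 in 3BKO. Both 3AKO libraries were above all 4 of the others, whereas WT and 3BKO overlapped. The log2 ratios of 3AKO to WT were 0.98 in batch 1 and 2.31 in batch 2, so batch 1 fell just short of the limit. A Cdh3 read was found in 43.2% of 3AKO cells (32.7 to 54.2%; 55.7% without thinning), 27.5 percentage points above WT (13.4 to 40.4), and in 29.9% of 3BKO cells (19.3 to 42.3%; 32.8% without thinning). Under 8 other settings, among them batch 2 alone, median-ratio scaling and the omission of the highest cell, Cdh3 was called higher in 3AKO.

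Fn1 had overlapping levels in the 3 genotypes at day 9, with 207 and 160.1 CPM in WT, 234 and 124 in 3AKO and 174 and 111 in 3BKO. The share of cells with a read ran from 76.1% in 3BKO to 84.1% in 3AKO, with overlapping intervals. Where Vim was low in 3BKO, Fn1 had log2 ratios to WT of -0.25 and -0.52.

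Snai1 was seen in more 3BKO cells than WT cells, at low levels. It had 18.1 and 4.68 CPM in 3BKO, 3.80 and 5.15 in 3AKO and 11.6 and 0.418 in WT. In WT, 1 cell held 82.6% of the reads, and in 3BKO the highest cell held 13.6%. A read was found in 17.9% of 3BKO cells (9.61 to 29.2%; 28.4% without thinning), 7.95% of 3AKO cells (3.26 to 15.7%; 11.4% without thinning) and 4.49% of WT cells (1.24 to 11.1%). The difference of 3BKO to WT was 13.4 percentage points (2.80 to 25.2). Of the other 10 nascent and early mesoderm markers, 5 had reads in 3BKO at day 9, where T, Mixl1, Mesp1, Hand1 and Foxf1 were at 0. Counted with Snai1, 6 of the 11 had reads in 3BKO and in 3AKO, where Tbx6, Msgn1, Hand1, Kdr and Foxf1 were at 0, and 10 in WT. Their summed level was 35.3 and 49.6 CPM in the 3BKO batches, 28.6 and 77.2 in 3AKO and 39.2 and 15.6 in WT.

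**Figure D4:**
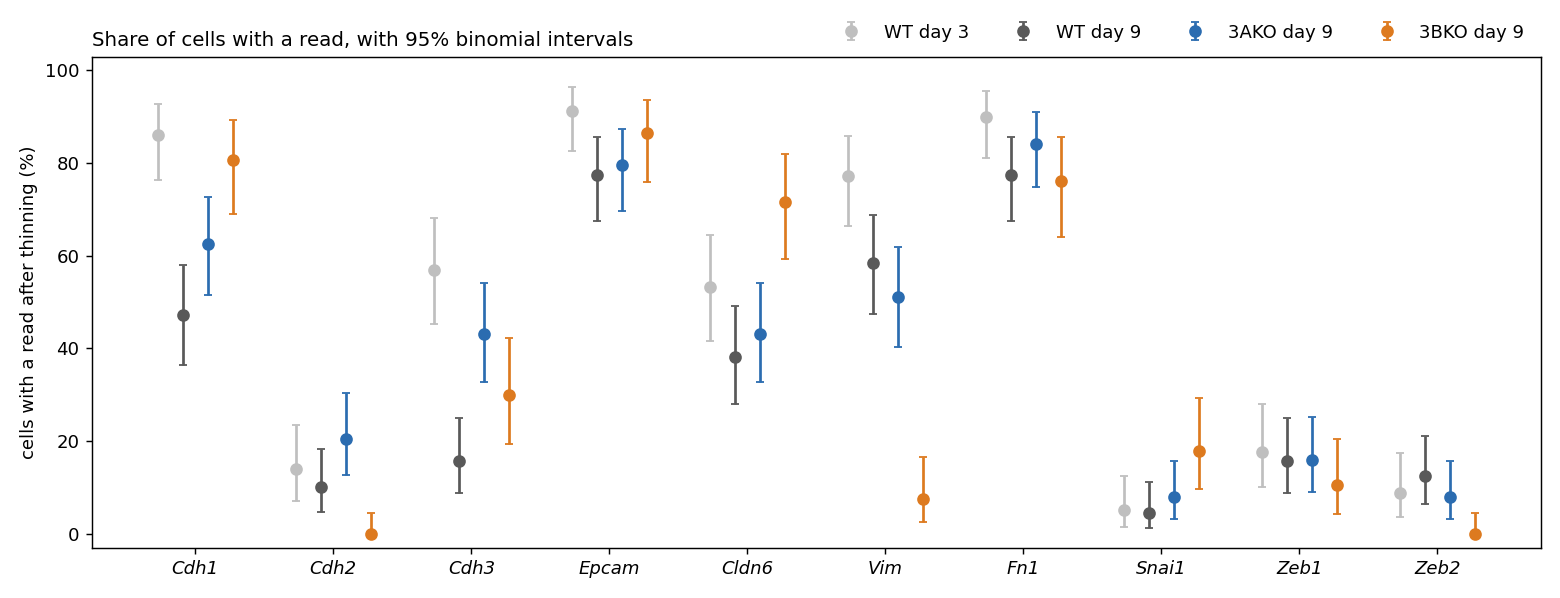
Share of cells with at least 1 read after thinning to 50000 reads (vertical axis, %) for the 10 genes in WT at day 3 and the 3 genotypes at day 9, with 95% exact binomial intervals as bars (for a share of 0, up to the 4.48% that 3 cells allow). In 3BKO the share is 7.46% for Vim and 80.6% for Cdh1, against 58.4% and 47.2% in WT at day 9.

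The same cells were then asked which genes they carried together. At day 3, 64.6% of 79 WT cells had reads of both Cdh1 and Vim (53 to 75.0%), 21.5% had Cdh1 alone and 12.7% had Vim alone. At day 9, 19.1% of 89 WT cells had both (11.5 to 28.8%), 28.1% had Cdh1 alone, 39.3% had Vim alone and 13.5% had neither. In 3AKO at day 9 these shares were 31.8%, 30.7%, 19.3% and 18.2% of 88 cells. In 3BKO they were 5.97%, 74.6%, 1.49% and 17.9% of 67 cells. Cells with Vim and no Cdh1 were thus 35 in WT, 17 in 3AKO and 1 in 3BKO. In 3BKO only 5 of 67 cells had a Vim read and 54 had a Cdh1 read. These joint shares therefore restate in part the shares of each gene by itself. The numbers to be had from the single shares alone were not computed, so no cell class is read from them.

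Over cells, thinned Cdh1 and Vim reads ran against each other in WT, with a Spearman rho of -0.41 at day 3 (-0.53 in batch 1 and -0.11 in batch 2, 79 cells) and of -0.41 at day 9 (-0.46 and -0.33, 89 cells). In 3AKO at day 9 rho was -0.10 (-0.06 and -0.21, 88 cells), and in 3BKO too few cells had Vim for a value. Among the epithelial genes, Epcam and Cldn6 had a rho of 0.43 in WT at day 3, 0.32 in WT at day 9 and 0.62 in 3AKO at day 9 (0.62 and 0.60 in the batches), but -0.09 in 3BKO at day 9. Cdh1 and Cldn6 had 0.48 and 0.36 in WT at day 3 and day 9. These are descriptions over cells that share a library and a plate, in counts with many values of 0. Both E-cadherin and N-cadherin reads were found in 2 of 89 WT and 5 of 88 3AKO cells at day 9. N-cadherin (Cdh2) was itself read in only 9 and 18 of these cells. In WT at day 3, 9 cells had both and 2 had Cdh2 alone. In 3AKO at day 9 Cdh2 had a rho of -0.33 with Cdh1 and 0.32 with Vim.

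**Figure D5:**
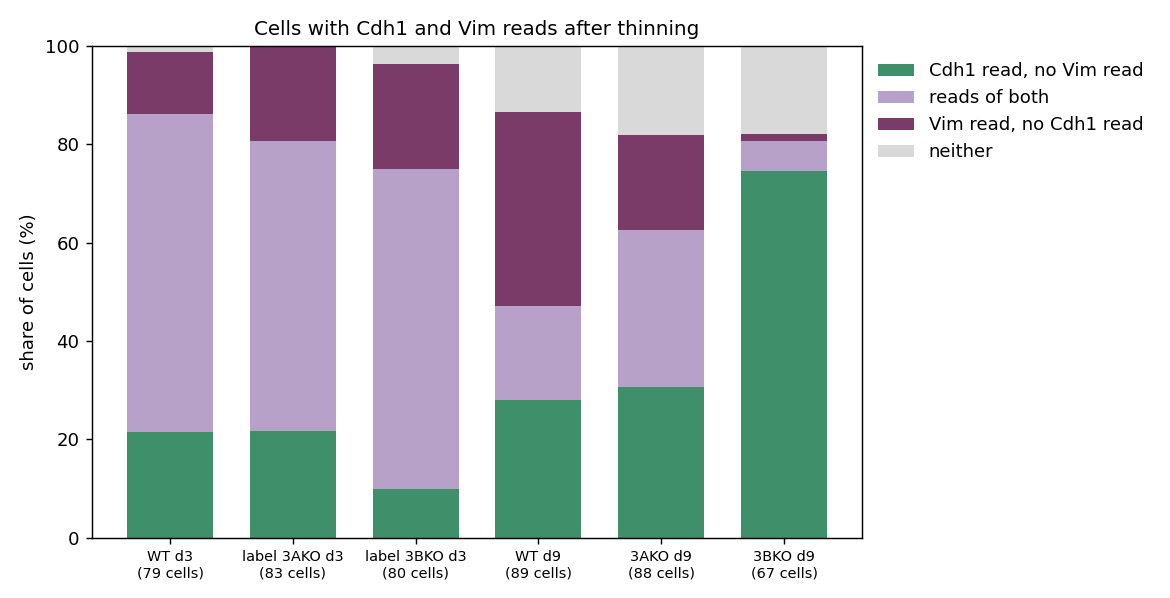
Share of cells (vertical axis, %) with reads of Cdh1, of Vim, of both or of neither after thinning, in the 6 groups, with the number of cells under each bar. Cells with Vim and no Cdh1 at day 9 make up 39.3% of the bar for WT, 19.3% of that for 3AKO and 1.49% of that for 3BKO.

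At day 3, several members in the mutant libraries went by plate rather than by label, but not all of them. Vim had 277 CPM in the batch 1 library labelled 3BKO and 250.2 in the batch 2 library labelled 3AKO, both on plate 210, and 145 and 113 CPM in the libraries of plate 211. Cdh1 had 75.1 and 74.3 CPM on plate 210 and 127 and 135 on plate 211, and Zeb1 20.7 and 19.3 on plate 210 and 4.13 and 6.08 on plate 211. For these 3 genes the labels overlapped and the plates did not. Cldn6 went with the batch instead, with 55.3 and 53.8 CPM in batch 1 and 18.3 and 24.1 in batch 2 of labels 3AKO and 3BKO, all below the 84 and 66.7 of WT. Epcam had 194 and 149.5 CPM on plate 210 and 216 and 199 on plate 211, below the 278 and 265 of WT. Fn1 had 142 and 101 CPM on plate 210 and 223 and 148 on plate 211. For Epcam and Fn1 the plates did not overlap either, whereas for Cdh2, Cdh3 and Snai1 they did. Plate and genotype cannot be told apart here, whereas each label had a library on both plates.

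The shares of day 3 mutant cells with a read after thinning also differed between the batches of a label. Cdh1 reads were found in 87.9% of 58 cells in batch 1 and 64% of 25 in batch 2 of label 3AKO, and in 70.4% of 54 and 84.6% of 26 under label 3BKO, so both libraries of plate 211 were above both of plate 210. Cldn6 reads were found in 46.6% and 42.3% of cells in the libraries of plate 211 and in 24.1% and 16% in those of plate 210. For Vim the shares were 77.6% and 80% in batch 1 and batch 2 of label 3AKO and 90.7% and 76.9% under label 3BKO. Intervals of these shares are wide, for example 42.5 to 82% for Cdh1 in the 25 cells.

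Other genes of these pathways were taken from lists, with the same rule. None of 19 other cadherins passed the detection limit in any of the 4 comparisons. Of 12 adherens junction partners, 8 passed it in each, and Vcl (vinculin, which shares exon bases with Ap3m1) was lower in 3BKO, at 1.58 CPM against 8.70 in WT and 6.71 in 3AKO. The beta-catenin gene Ctnnb1, whose product binds the cadherin tail, stood at 389 CPM in both WT and 3AKO and at 491 in 3BKO.

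Among 23 tight junction, desmosome and polarity genes, 13 passed the detection limit between 3BKO and WT, with a median log2 ratio of 0.45. Llgl2, a polarity gene, was higher in 3BKO, at 135 CPM against 49.1 in WT and 26.2 in 3AKO. The desmosomal gene Dsp was lower in 3AKO, at 2.47 CPM, than in WT, at 18.3, and than in 3BKO, at 20.9, and it shares exon bases with Gm10129. The claudin gene Cldn3, which shares exon bases with Wbscr25, was lower in 3BKO than in 3AKO, at 2.01 against 24.4 CPM. In WT over time 1 of 15, Pard6b, a polarity gene, was lower at day 9, at 8.44 against 30.4 CPM.

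Of 18 epithelial state genes, 11 passed the limit between 3BKO and WT, with a median log2 ratio of 0.47. Spint1, a membrane protease inhibitor gene, was higher in 3BKO at 132 against 57.6 CPM, and Ap1m2, which encodes an epithelial adaptor subunit, at 92 against 42.2 CPM in WT and 32.7 in 3AKO. Prom1 (prominin 1, which shares exon bases with Gm16401) was lower in 3BKO, at 1.02 CPM, than in WT, at 30.6, and than in 3AKO, at 28.1. The keratin gene Krt18 was higher in 3AKO, at 45.7 CPM, than in WT, at 6.98, and than in 3BKO, at 9.97, with 45.9% of the 3AKO reads in 1 cell. In WT over time the transcription factor gene Grhl3 rose from 21.4 to 64.7 CPM.

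Of 24 mesenchymal and matrix genes, 7 passed the limit between 3BKO and WT, 0 of them with a log2 ratio above 0, and with a median of -0.77 beside -0.08 over all genes. Lgals1 (galectin 1, with 2 named pseudogenes) was lower in 3BKO, at 136 against 344 CPM. Against 3AKO, Lamb1, a laminin chain gene, was lower in 3BKO at 12.4 against 50.6 CPM, with 59.4% of the 3AKO reads in 1 cell, and the protease gene Mmp14 at 13.2 against 32 CPM, while S100a6, a calcium-binding protein gene, was higher at 64.4 against 21.1 CPM. In WT over time S100a6 rose from 2.23 to 71.2 CPM and Lgals1 from 48 to 344 CPM. Of 10 other EMT transcription factors, 3 passed the limit in 3BKO against 3AKO and Klf8 was higher, at 22.4 against 6.08 CPM. Of 7 fibronectin receptor genes 3 or 4 passed the limit in each of the 4 comparisons, and of 10 TGF-beta signalling genes 4 or 5. None of them was called, beside 1.07% to 5.25% of all genes per comparison and direction. With so few genes a count of 0 is near these shares. The integrin gene Itgb1 had 83.7 CPM in 3AKO, 211 in WT and 168 in 3BKO.

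Over the 12 libraries, the level of Vim on log2(CPM + 1) was most like that of Nt5dc2, Map1b and Ssbp4, with Pearson r of 0.97, 0.96 and 0.96 among 8804 genes. For Cdh1 these were Steap1, Map7 and Senp2 (0.86, 0.85 and 0.85), for Cdh2 Nabp2, Slc7a7 and Uap1l1 (0.96, 0.95 and 0.95), and for Cdh3 Zfp346, Map3k4 and Ormdl3 (0.95, 0.94 and 0.94). For Epcam they were Bcas3, Trex1 and Pak1ip1 (0.93, 0.92 and 0.89), for Cldn6 Ripk3, Plrg1 and Yipf2 (0.95, 0.94 and 0.92), and for Fn1 Prrc1, Smpdl3b and Adat2 (0.93, 0.89 and 0.89). Among the members, r was -0.74 for Cdh1 with Zeb1, -0.73 for Epcam with Vim and 0.76 for Epcam with Snai1. The 12 libraries share 6 plates and 2 batches, and no test was made.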

How the data were processed

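The authors deposited 1 table of read counts per gene name and cell, made with modified Smart-seq2 from cells sorted into wells. They checked reads with FastQC 0.11.2, trimmed them with Trim Galore 0.5.0, aligned them to GRCm38 with STAR 2.7.1a and counted exons with featureCounts 1.6.1 against GENCODE M23, leaving out reads that map to several places. The deposited counts are raw. Positions and exon lengths came from GENCODE vM21, which held 53569 of the 55228 gene names. The 26 columns that carry no sample were not used.

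Cells with fewer than 50000 reads, fewer than 2000 genes or more than 50% mitochondrial reads were removed. Counts were summed per genotype, day and batch (plate columns 1 to 8 or 9 to 12) and scaled to CPM, with a pseudocount of 1 on the log2 scale, which understates changes of low genes. Since each GEO sample is 1 cell, no test was run and no p-value made. Doublets were not called. The fold rule was also run on simulated library sums. Those held no single cells and no batch effect, so they do not show how the rule behaves where 1 cell holds many of the reads. The members, lists and markers were chosen with earlier results of these data known. All 10 members were named, beside list genes past the fold rule (at most 5 per direction, comparison and list), the 3 genes most like 7 of the members, and Ctnnb1 and Itgb1, which were chosen after their values were seen. Alternatives were other cell filters (100000 reads, 4000 genes, 25%), single batches, mean cell CPM, thinning, other denominators, TMM factors (edgeR 4.0.16), median-ratio factors (DESeq2 1.42.0), pseudocounts of 0.1 and 10, detection in 10% or 40% of cells, fold limits of 0.5 and 1.5, omission of the cell with the most reads of each gene, and, for shares, no thinning or at least 5 reads. Tools were Python 3.11.15, numpy 2.4.6, pandas 2.3.3, scipy 1.17.1 and R 4.3.3.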

Additional observations from a re-analysis of the deposited data

Results flagged for a closer look

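For 6 members, the log2 ratio of day 9 to day 3 had one sign in both WT batches and the opposite sign in both batches of a mutant label. This flag asked for no size of ratio and no detection limit. The share of all genes that meet it was not computed, so the count has no background beside it. None of these differences was tested, and by Dnmt3a the day 3 mutant libraries of batch 2 went against their labels, so the mutant ratios are given by label.

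Vim had ratios of 0.95 in batch 1 and 0.30 in batch 2 of WT, -3.97 and -4.68 under label 3BKO, and -0.079 and -1.49 under label 3AKO. Epcam had -0.15 and -0.64 in WT, 1.13 and 0.90 under label 3BKO, and 0.43 and 0.72 under label 3AKO. Cdh1 had -1.18 and -0.65 in WT and 0.21 and 0.19 under label 3BKO. Cdh2 had 0.92 and 1.32 in WT and -2.64 and -1.27 under label 3BKO. Zeb1 had 0.52 and 2.18 in WT and -0.44 and -2.31 under label 3BKO, and Zeb2 had 0.63 and 0.43 in WT and -2.75 and -3.65 under label 3BKO. For Cdh2 and Zeb2 the 3BKO values at day 9 rest on 0 reads, so their ratios depend on the pseudocount.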

How the results depend on the processing

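Of 480 recomputed log2 ratios of the members in the 4 comparisons, 457 kept the sign of the reported value and 63 moved by more than the SD of the 2 batches. Of 40 recomputed differences of shares to WT at day 9, 36 stayed within the reported interval and none of those clear of 0 changed sign. No paired analysis was possible because no test was run and replicate numbers only name cells. The ratios by batch compare groups within a batch. Vim in 3BKO ranged from -4.81 to -3.63 against WT and from -4.33 to -2.69 against 3AKO.

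Of 128 recomputed member counts, those that moved by over 1.5 times were the following. Higher in 3AKO than WT, the count of 0 became 1 (Cdh3) with the stricter cell filter, mean cell CPM, thinned cells, median-ratio factors, a pseudocount of 0.1, the highest cell left out or a fold limit of 0.5, and 2 (Cdh2 and Cdh3) in batch 2. Lower in 3AKO, it became 1 in batch 1 (Vim) and 1 in batch 2 (Zeb1). Higher in 3BKO than WT, the count of 0 became 1 in batch 1 (Cldn6), and 2 (Cdh1 and Epcam) in batch 2 and at a limit of 0.5. Lower in 3BKO than WT, 1 became 2 in batch 2 (Vim and Zeb1) and 3 with detection in 10% of cells (Cdh2, Vim and Zeb2). For 3BKO against 3AKO, 0 higher became 1 in batch 1 (Snai1) and 2 at a limit of 0.5 (Cdh1 and Epcam), and 2 lower became 1 with detection in 40% (Vim) and, a change of 1.5 times, 3 (Cdh2, Cdh3 and Vim) in batch 2 and at a limit of 0.5. In WT over time, 0 higher became 2 in batch 2 (Cldn6 and Zeb1) and at a limit of 0.5 (Fn1 and Zeb1), and 1 lower became 2 (Cdh1 and Cdh3) in batch 1, without the highest cell and at a limit of 0.5, and 0 with a pseudocount of 10 or a limit of 1.5. Single batches and looser limits call more by construction. The cause of the other changes was not tested. TMM and median-ratio factors shifted the median of all genes by -0.21 and -0.18 in WT over time, a denominator without mitochondrial genes by -0.12, and median-ratio factors by 0.11 in 3BKO against WT.

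With 67 to 89 cells a group, shares near 10% have intervals of over 10 percentage points, and for genes seen in few cells a single cell can set the sum.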
